A study of Mus musculus with 4 samples.

Results

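The miR-148 and miR-152 family is a group of miRNAs defined by a shared seed, the bases with which a miRNA pairs to its target mRNAs. Its members were found by name among the miRNAs sequenced from exosomes of mouse adipose tissue. They are 5 sequences, miR-148a-3p, miR-148a-5p, miR-148b-3p, miR-152-3p and miR-152-5p, of 697 sequences with a mouse miRNA name and 1482 sequences listed in all. All 5 were listed above 0 in every library.

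The study sequenced small RNA of exosomes (AT-Exos) released by adipose tissue of wild-type C57BL/6 mice on a low-fat diet (LFD) or a high-fat diet (HFD). Visceral white adipose tissue (vWAT-Exos) and brown adipose tissue (BAT-Exos) were each sequenced on either diet, in 4 libraries, with 1 library per condition. The comparisons ask whether the diet or the depot alters the miRNAs that the exosomes carry. The labels give an age of 6 weeks and a diet of 4 months for all 4 groups, without saying how these fit together. By the labels the groups share the wild-type genotype and differ in diet and depot. With 1 library per condition, differences between preparations cannot be told apart from those of diet and depot. The mice were male according to the study's methods, and the sources used here do not say whether a library pools several mice. The exosomes were collected from the medium of shredded tissue kept in culture, so they come from every cell type that survived in the explant. In such bulk material fewer cells of a type and less RNA per cell cannot be told apart.

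miRNAs are short RNAs that guide Argonaute proteins to partly complementary sites in mRNAs, which are then repressed. A hairpin precursor is cut into a duplex of 2 strands, 1 from its 5′ arm (5p) and 1 from its 3′ arm (3p), and 1 of them is usually kept as the guide while the other is degraded. The miR-148 and miR-152 family is known for repressing the DNA methyltransferase DNMT1. Its member miR-148a is abundant in liver, where it represses the low density lipoprotein receptor, and has been described as promoting the differentiation of human adipose stem cells into adipocytes.

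The 3 sequences of the 3′ arm are shown first, because their likeness decides which targets they share and how well reads can be told apart between them. They are written 5′ to 3′ as RNA, as given by RefSeq for the mouse build GRCm38.p6, with the seed (bases 2 to 8) in capitals:
mmu-miR-148a-3p: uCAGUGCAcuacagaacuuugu
mmu-miR-148b-3p: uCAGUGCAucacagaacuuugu
mmu-miR-152-3p: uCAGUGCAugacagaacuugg

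The 3 had the same seed, CAGUGCA, and no other of the 1482 listed sequences, nor any other of 1674 mature mouse miRNAs of RefSeq, had it at bases 2 to 8. Counted from the 5′ end, miR-148b-3p differed from miR-148a-3p by the changes C9U and U10C and matched it at 20 of 22 bases. Against miR-148a-3p, miR-152-3p had the changes C9U, U10G and U20G over the 21 bases that both have, and against miR-148b-3p it had C10G and U20G. The last 6 letters of the seed, AGUGCA, lay within bases 1 to 9 but in another register in 5 further listed sequences, which were miR-130a-3p, miR-130b-3p, miR-301a-3p, miR-301b-3p and miR-350-5p.

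The 5′ arm strands of the same hairpins carried other seeds. They are shown because the deposited entry of miR-152-5p does not start where RefSeq starts it, which moves its seed:
mmu-miR-148a-5p: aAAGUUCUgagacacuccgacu
mmu-miR-152-5p, RefSeq: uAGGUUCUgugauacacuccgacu
mmu-miR-152-5p, as listed: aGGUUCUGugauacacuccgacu

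The listed miR-152-5p lacked the first base and so held 23 of the 24 bases of RefSeq, which turned the seed from AGGUUCU into GGUUCUG. The listed sequences of the other 4 members were identical to RefSeq. The seed of miR-148a-5p, AAGUUCU, was shared by 1 further listed sequence, miR-148b-5p. That strand was not among the members and is named here after its values were seen.

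On GRCm38 the Mir148a hairpin lay at chr6:51269812-51269910 on the minus strand, outside any protein-coding gene of GENCODE release 21, with Nfe2l3 as the nearest, 162760 bases away. Mir148b lay at chr15:103285125-103285221 on the plus strand, inside an intron of Copz1 and on the strand of that gene. Mir152 lay at chr11:96850393-96850465 on the plus strand, likewise inside an intron of Copz2 and on its strand. Copz1 and Copz2 encode the zeta subunits of the COPI coat, which carries vesicles from the Golgi back to the endoplasmic reticulum. The 3 hairpins are therefore 3 separate loci on 3 chromosomes.

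The values deposited by the authors are a normalized signal per miRNA and library, the norm value, which comes without read counts. Wherever 4 values follow each other below, they belong to vWAT on LFD, vWAT on HFD, BAT on LFD and BAT on HFD, in this order. The library totals were 2585590, 2839846, 5650701 and 5832550, which is about 1898620, 1198338, 6846014 and 8265829 reads, inferred from the steps in which the values lie. The depots stood apart in their markers: miR-378a-3p, a miRNA of brown fat, was at 71290, 113025, 2108530 and 2080467, while miR-196a-5p, a miRNA of posterior white fat, was at 1392, 1436, 4.13 and 4.94. Of the other white fat markers, miR-196b-5p was at 1947, 2005, 14.9 and 6.35, while the more abundant miR-10b-5p did not separate the depots that way, at 87706, 107379, 109329 and 131716. Leukocyte markers held 1.61% to 1.62% of the vWAT-Exos libraries and 0.0689% to 0.0869% of the BAT-Exos libraries. Markers of striated muscle held 0.393% of HFD BAT-Exos and 0.0488% to 0.0742% of the other 3 libraries. miR-122-5p, the defining miRNA of hepatocytes, in which miR-148a is also abundant, stood at norm values from 114 to 596, at most 0.0105% of a library. No value has a replicate error, since a condition has a single library. The intervals below are 95% intervals from the approximate reads and cover counting error only, not the spread between mice or preparations, and PCR duplicates are not independent molecules.

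Among the members, the 3p strands were the abundant ones. The norm value of miR-148a-3p was 41562, 63515, 120815 and 101136. It was thereby the 13th, 11th, 8th and 10th most abundant of the 697 mouse sequences and held 1.61%, 2.24%, 2.14% and 1.73% of the library totals. Both BAT-Exos libraries lay above both vWAT-Exos libraries in norm value, but not in share of the library, where HFD vWAT-Exos was the highest.

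The norm value of miR-152-3p was 23250, 37675, 48054 and 46561, which was 0.899%, 1.33%, 0.850% and 0.798% of the totals. The LFD vWAT-Exos library had the lowest norm value, and the BAT-Exos libraries had the lowest shares. The least abundant 3p strand was miR-148b-3p, with norm values of 5207, 7201, 9827 and 12792. Its share of the library stayed between 0.174% and 0.254%.

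The 5p strands were present at low levels. miR-148a-5p had norm values of 131, 161, 190 and 128, from approximately 96, 68, 230 and 182 reads. miR-152-5p had norm values of 66.7, 161, 111 and 115, from approximately 49, 68, 135 and 163 reads. The LFD vWAT-Exos library was the lowest for miR-152-5p and HFD vWAT-Exos the highest. In HFD vWAT-Exos the 2 strands rested on the same number of reads.

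**Figure D1:**
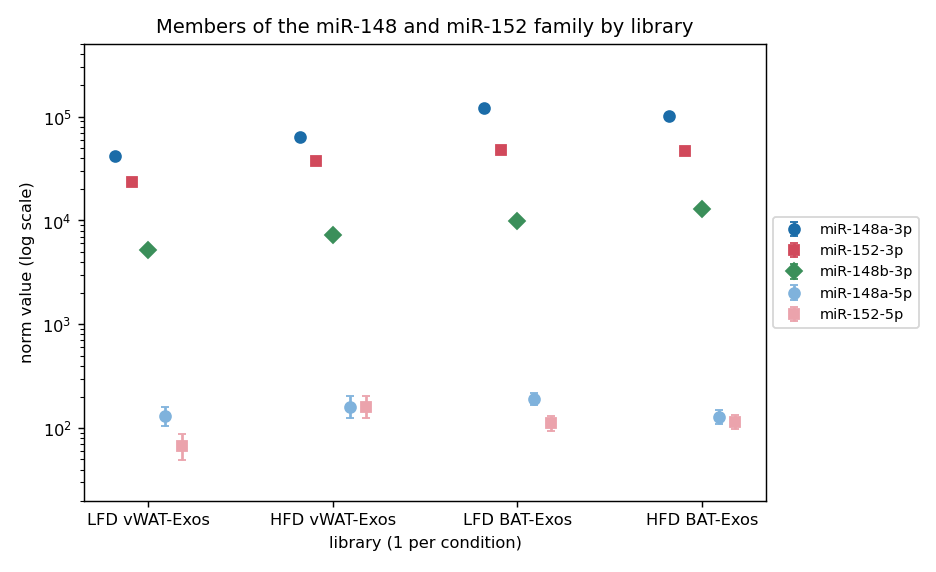
Norm value on a log scale of the 5 members in each of the 4 libraries (1 library per condition), with 95% counting intervals where they are wider than the symbol. The 3p strands lie between 5207 and 120815 in the order miR-148a-3p, miR-152-3p, miR-148b-3p in every library, and the 5p strands lie between 66.7 and 190.

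The order miR-148a-3p above miR-152-3p above miR-148b-3p held in all 4 libraries, and the counting intervals of neighbours in that order did not overlap. The 2 5p strands had overlapping intervals in HFD vWAT-Exos and HFD BAT-Exos, and miR-148a-5p was above miR-152-5p by 1.96-fold (95% interval 1.37 to 2.82) in LFD vWAT-Exos and by 1.70-fold (1.37 to 2.12) in LFD BAT-Exos. The 5 members together held 2.72%, 3.83%, 3.17% and 2.76% of the library totals, of which the 3p strands made up 99.7% to 99.8%. Of the 3p strands, miR-148a-3p made up 59.4%, 58.6%, 67.6% and 63.0%. The part of miR-152-3p was 33.2%, 34.8%, 26.9% and 29.0%, lower in both BAT-Exos libraries, and that of miR-148b-3p lay between 5.50% and 7.97% throughout.

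**Figure D2:**
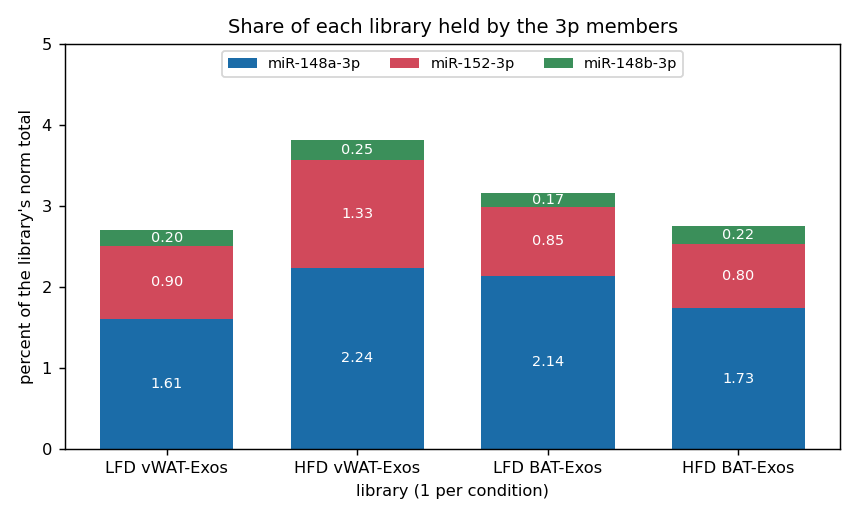
Stacked bars of the percent of each library's norm total held by miR-148a-3p, miR-152-3p and miR-148b-3p, 1 bar per library, starting at 0. The bar of HFD vWAT-Exos is the tallest at 3.82%, and the miR-148a-3p segment is largest there at 2.24%.

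The approximate reads of the 3p strands were not whole numbers. In both LFD libraries miR-148b-3p and miR-152-3p each ended on 0.5 of a read, while miR-148a-3p was whole. In HFD vWAT-Exos all 3 ended on 0.667 of a read and in HFD BAT-Exos on 0.333. Their sum was whole in every library, at 51415, 45738, 216497 and 227443 reads. The sources used here do not say how reads that fit several of these near-identical sequences were assigned, so the levels of single 3p members are uncertain by an amount the table does not give. The sum of the 3p strands does not depend on how reads were assigned among them.

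The first comparison was that of diet in vWAT-Exos. All 5 members had higher norm values in the HFD library than in the LFD library, also after scaling to the library totals, to median-of-ratios factors and to the totals without miR-378a-3p. Of the mouse miRNAs that reached a norm value of 100, 154 were higher and 129 lower on HFD as deposited. By the library totals 118 were higher and 191 lower. The ratio was 1.53 for miR-148a-3p (1.503 to 1.55), 1.62 for miR-152-3p (1.59 to 1.66) and 1.38 for miR-148b-3p (1.32 to 1.45). It was 2.41 for miR-152-5p (1.65 to 3.56) and 1.23 for miR-148a-5p, whose interval of 0.890 to 1.70 includes 1. A miRNA was counted as apart if it differed by 2-fold or more and reached a norm value of 100 in 1 or both libraries. By this count 1 of 5 members was apart, miR-152-5p, against 10.2% of the 283 mouse miRNAs that reached 100 (16 higher and 13 lower on HFD). Its LFD value rested on 49 reads and lay under 100.

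The median log2 ratio of the members was 0.61 and that of the 283 miRNAs 0.04. Scaling to the library totals moved the latter to -0.12 and the members' median to 0.48. As deposited, 84.1% of the miRNAs had a lower ratio than miR-148a-3p, 88.7% a lower one than miR-152-3p and 77.4% a lower one than miR-148b-3p. The 3p strands thus lay in the upper part of the distribution and within 2-fold. The summed share of epithelial markers was 0.146% on LFD and 0.261% on HFD, and all 8 were above 0 in both libraries. As deposited 5 of the 8 were at least 2-fold higher, and 4 by the library totals. Of the 5, miR-141-3p, miR-200c-3p and miR-375-3p reached 100 on HFD alone, so the minimum favoured a higher value on HFD for them. The summed share of brown fat markers was 2.85% and 4.09%, with 0 of 3 at least 2-fold apart. The part of these cell types in the result was not tested.

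In BAT-Exos the members did not share a direction. miR-148a-3p was 1.19-fold lower in the HFD library (1.19 to 1.20) and miR-148a-5p 1.48-fold lower (1.21 to 1.81), while miR-148b-3p was 1.30-fold higher (1.27 to 1.33). The ratio of HFD to LFD was 0.969 for miR-152-3p (0.958 to 0.980). For miR-152-5p it was 1.03 as deposited and 0.974, in the other direction, with totals that leave out miR-378a-3p, and its interval of 0.817 to 1.31 includes 1. None of the 5 members was at least 2-fold apart (0 of 5), against 19.8% of 283 mouse miRNAs (21 higher and 35 lower on HFD). The members' median log2 ratio was -0.05 and that of all 283 was 0.07. In these libraries all 6 striated muscle markers were at least 2-fold higher on HFD, with a median log2 ratio of 2.61. Of the 6 epithelial markers that reached 100, 5 were at least 2-fold lower. The muscle marker miR-208b-3p, at 7.43 on LFD and 208 on HFD, reached 100 on HFD alone. miR-200a-3p, miR-200c-3p and miR-429-3p reached it on LFD alone, so the minimum favoured the direction seen for these markers. miR-375-3p, an epithelial marker, was listed at 0 in both libraries. The part of these markers in the result was not tested.

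**Figure D3:**
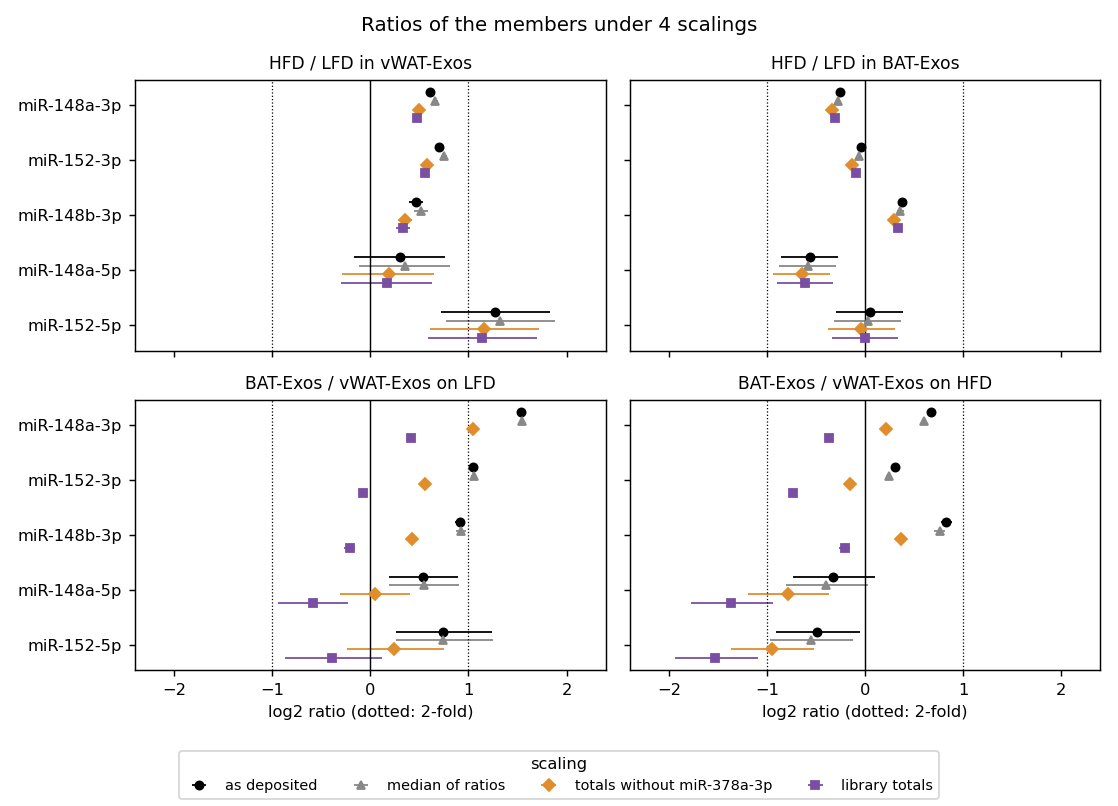
Log2 ratio of each member in the 4 comparisons (diet in each depot, depot on each diet) under 4 scalings, shown by symbol, with 95% counting intervals. Dotted lines mark 2-fold. All points of the vWAT-Exos diet panel lie above 0, whereas in the depot panels the points after scaling to the library totals lie below 0 except miR-148a-3p on LFD.

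The comparisons of depot use the same 4 libraries as those of diet, so they are not independent of them. On LFD, all 5 members had higher norm values in BAT-Exos than in vWAT-Exos as deposited, whereas after scaling to the library totals 4 of 5 were lower and miR-148a-3p alone remained higher. The ratio as deposited was 2.91 for miR-148a-3p (2.87 to 2.94), 2.07 for miR-152-3p (2.03 to 2.10) and 1.89 for miR-148b-3p (1.82 to 1.96). For miR-152-5p it was 1.67 (1.20 to 2.37) and for miR-148a-5p 1.45 (1.14 to 1.86). After scaling to the totals these ratios were 1.33, 0.946, 0.864, 0.764 and 0.664 in the same order. With totals that leave out miR-378a-3p, which makes up most of the 36.6% to 37.96% of the BAT-Exos libraries that brown fat markers hold, they were 2.06, 1.47, 1.34, 1.19 and 1.03, all above 1.

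As deposited, 2 of 5 members were at least 2-fold apart on LFD, both higher in BAT-Exos, against 52.8% of 303 mouse miRNAs apart and 29.4% at least 2-fold higher in BAT-Exos. No member was apart after scaling to the library totals, against 64.8% of 318 mouse miRNAs (38 higher and 168 lower in BAT-Exos), and 1 was, miR-148a-3p, with totals that leave out miR-378a-3p, against 57.2% of 313 (66 higher and 113 lower). The median log2 ratio of all miRNAs moved from 0.19 as deposited to -1.15 and -0.43 under these scalings. That of the members moved from 0.92 to -0.21 and 0.42. The leukocyte markers, of which 4 of 5 were at least 2-fold lower in BAT-Exos on LFD, moved with the depot too, and their part in these ratios was not tested. A lower ratio than that of miR-148a-3p was found for 79.3% of the miRNAs as deposited and for 81.3% after scaling to the totals. Scaling multiplies all ratios of a comparison by the same factor, so it cannot reorder them. The percentages differ because other miRNAs reached the minimum norm value after scaling. They therefore do not test whether the place of miR-148a-3p is stable.

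On HFD the 3p strands were higher in BAT-Exos as deposited and the 5p strands lower, whereas all 5 were lower after scaling to the library totals. The deposited ratio was 1.59 for miR-148a-3p (1.57 to 1.61), 1.78 for miR-148b-3p (1.71 to 1.85) and 1.24 for miR-152-3p (1.21 to 1.26). It was 0.797 for miR-148a-5p, with an interval of 0.60 to 1.07 that includes 1, and 0.714 for miR-152-5p (0.535 to 0.962). By the library totals the ratios were 0.775, 0.865, 0.602, 0.388 and 0.348, and without miR-378a-3p in the totals 1.16, 1.29, 0.898, 0.579 and 0.519. The 5p strands were thus lower in HFD BAT-Exos under each of these scalings, while each of the 3p strands changed direction between them. As deposited 0 of 5 members were at least 2-fold apart, against 62.9% of 307 mouse miRNAs apart and 32.2% at least 2-fold higher in BAT-Exos. After scaling to the library totals 2 of 5, both 5p strands, were at least 2-fold lower in BAT-Exos, against 48.4% of 306 mouse miRNAs at least 2-fold lower. As deposited the members' median log2 ratio was 0.31, near the 0.20 of all miRNAs. By the library totals it was -0.73 for the members and -0.93 for all miRNAs, of which 213 were lower in BAT-Exos and 88 higher. The muscle markers, at 0.393% of HFD BAT-Exos, were all 6 at least 2-fold above HFD vWAT-Exos. Of the epithelial markers 6 of 8 were at least 2-fold lower in BAT-Exos (median log2 ratio -3.70), and of the leukocyte markers 3 of 5 (-3.52). The part of these markers in the ratios was not tested.

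**Figure D4:**
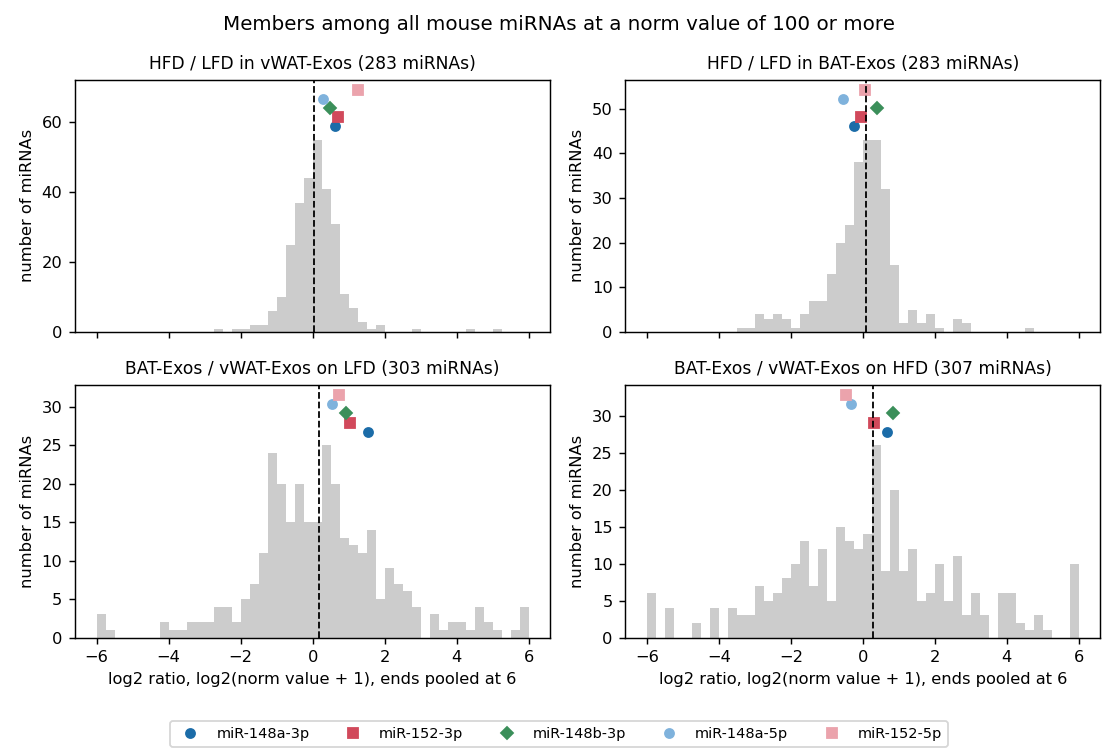
Histograms of the log2 ratio, on log2(norm value + 1), of all mouse miRNAs that reached a norm value of 100 in either library compared, for the 4 comparisons, with the 5 members as symbols above the bars and the median of all miRNAs dashed. The distributions of the depot comparisons are wider than those of diet, and the members lie within 2-fold except miR-152-5p for diet in vWAT-Exos and miR-148a-3p and miR-152-3p for depot on LFD.

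Diet and depot were also fitted together over all 4 libraries with limma on log2(norm value + 1), for 512 sequences that reached 10 in at least 1 library. A sequence's own error in this model comes from the departure of the libraries from additive effects, with 1 residual degree of freedom, and not from replicates. limma pooled this error over the 512 sequences along their abundance, with a weight of 951 degrees of freedom. The SE and p of a member thus come mainly from the pooled error and not from its own libraries. With no minimum norm value the weight was 0.786. For depot, 2 of 5 members passed an adjusted p of 0.05, against 44.5% of all sequences. These were miR-148a-3p, with a log2 effect of 1.11 ± 0.27 (SE) and an adjusted p of 0.000255, and miR-148b-3p, with 0.87 ± 0.37 and an adjusted p of 0.0449, which passed in this fit alone and ranged from 0.0614 to 0.589 over the alternatives. miR-152-3p missed the threshold at 0.68 and an adjusted p of 0.0528, and the effects of miR-148a-5p and miR-152-5p were 0.10 and 0.12 (adjusted p of 0.913 and 0.902). After scaling to the library totals no member passed, and the adjusted p of miR-148a-3p ranged from 0.000638 to 0.956 over the alternatives. For diet, limma called 0% of the 512 sequences and 0 of 5 members, with 45 sequences and none of the members at an unadjusted p under 0.05. The adjusted p of the members for diet lay between 0.857 and 0.980.

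Ratios within a library do not depend on its scaling. The ratio of miR-148a-3p to miR-148a-5p in vWAT-Exos was 318 on LFD (260 to 393) and 394 on HFD (311 to 508), and in BAT-Exos it was 636 on LFD (559 to 727) and 788 on HFD (681 to 916). It was higher in BAT-Exos by 2.002-fold on LFD (1.58 to 2.54) and by 1.998-fold on HFD (1.51 to 2.64), and the intervals of the depots did not overlap. Between HFD and LFD it differed by 1.24-fold in vWAT-Exos (0.908 to 1.69) and by 1.24-fold in BAT-Exos (1.019 to 1.503).

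The ratio of miR-152-3p to miR-152-5p was 348 (263 to 471), 234 (184 to 301.2), 431 (364 to 514) and 405 (347 to 475). The HFD vWAT-Exos library was the lowest and did not overlap with either BAT-Exos library. On HFD the ratio was higher in BAT-Exos by 1.73-fold (1.30 to 2.299), and on LFD by 1.24-fold with an interval of 0.892 to 1.72. In vWAT-Exos it was lower on HFD, at 0.671 of the LFD ratio (0.464 to 0.969).

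The non-member miR-148b-5p was at 34.0 and 33.2 in the vWAT-Exos libraries, from 25 and 14 approximate reads. In BAT-Exos it was listed at 0 on LFD and stood at 8.47 on HFD, from 12 reads. The ratio of miR-148b-3p to it was 153, 217 and 1511 in the 3 libraries that list it, the last with an interval of 865 to 2924. All 3 hairpins of the family had their lowest 3p to 5p ratio in a vWAT-Exos library, among the libraries that give one. For miR-148b the LFD BAT-Exos library gives none. Most of the hairpins compared next also had the higher ratio in BAT-Exos, so this is not particular to the family.

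These ratios were set beside those of other hairpins. Of 72 mouse hairpins with both strands listed and at least 10 approximate reads of the minor strand in every library, 4 had a more unequal pair of strands than miR-148a and 6 than miR-152, and the median ratio of the abundant to the minor strand was 9.95. The ratio of the abundant to the minor strand shifted between the depots in many of them. It was higher in BAT-Exos in 46 of 72 hairpins on LFD and in 47 on HFD. By at least 2-fold it was higher there in 16 of 72 hairpins on LFD and in 21 on HFD, and lower in 9 and 17. The shift of miR-148a, 1.001 in log2 on LFD and 0.999 on HFD, was exceeded by 14 hairpins on LFD and 21 on HFD, so it is not particular to this miRNA. The median shift of the 72 was 0.34 and 0.39. For miR-152 the shift between the depots, 0.31 on LFD and 0.79 on HFD, was exceeded by 36 and 27 hairpins. Its diet shift in vWAT-Exos, -0.58, lay below that of 59 hairpins. These shifts are therefore not particular to miR-152 either.

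**Figure D5:**
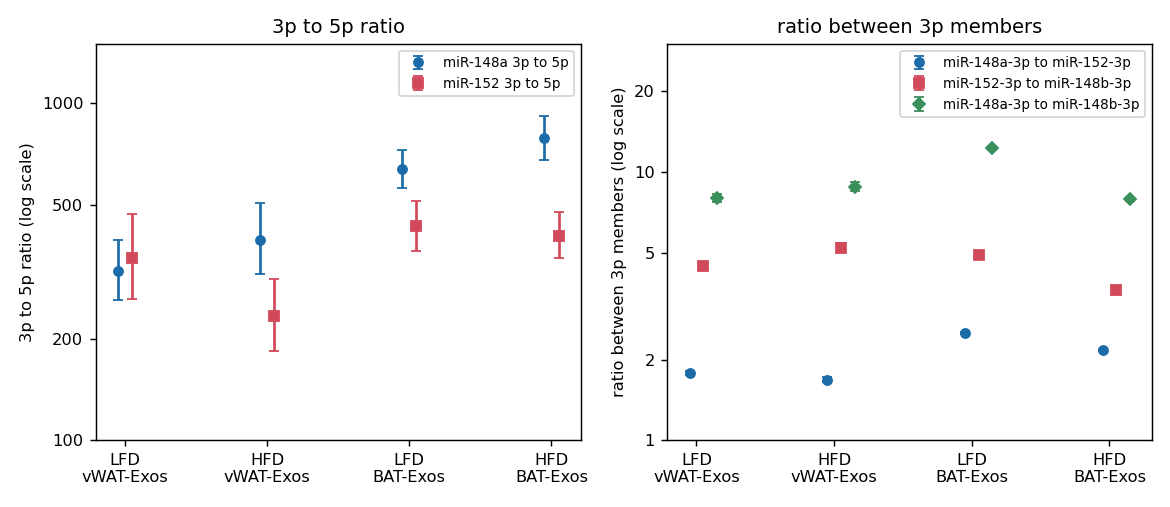
Ratios within each library on a log scale, with 95% counting intervals: on the left the 3p to 5p ratio of miR-148a and miR-152, on the right the ratios between the 3p members. The 3p to 5p ratio of miR-148a is 318, 394, 636 and 788 from left to right, and the ratio of miR-148a-3p to miR-152-3p is highest at 2.51 in LFD BAT-Exos.

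The 3p members also shifted against each other. The ratio of miR-148a-3p to miR-152-3p was 1.79, 1.69, 2.51 and 2.17. It was higher in BAT-Exos by 1.41-fold on LFD (1.38 to 1.44) and by 1.29-fold on HFD (1.26 to 1.32), counting error only. The ratio of miR-148a-3p to miR-148b-3p was 7.98, 8.82, 12.3 and 7.91. LFD BAT-Exos stood above the other 3, which lay between 7.91 and 8.82. The ratio of miR-152-3p to miR-148b-3p was 4.47, 5.23, 4.89 and 3.64, lowest in HFD BAT-Exos. How far the assignment of reads among these sequences moves the ratios was not tested.

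The profile of each 3p member over the 4 libraries, as log2(norm value + 1) centred on its own mean, was compared with that of 319 mouse sequences that reached 100. The profile nearest to miR-148a-3p was that of miR-5106 in a variant with a changed first base and 4 bases fewer (Euclidean distance 0.325), followed by miR-339-3p (0.387) and let-7b-5p (0.392). miR-152-3p came in position 6 and miR-148b-3p in position 9. Nearest to miR-152-3p were let-7b-5p (0.0973), miR-339-3p (0.284) and miR-1839-5p (0.289), with miR-148b-3p in position 4 and miR-148a-3p in position 8. Nearest to miR-148b-3p were miR-22-3p (0.0568), miR-339-3p (0.194) and miR-24-3p (0.255), with miR-152-3p in position 14 and miR-148a-3p in position 24. The members' nearest profiles thus belonged to miRNAs of other seeds, over 4 points only.

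Other miRNAs with related seeds, targets or tissue roles were read beside the family. The miR-130 and miR-301 family, whose seed holds AGUGCA in another register and which is known for repressing Pparg, the master regulator of adipocyte differentiation, was lower in BAT-Exos as deposited and under each other scaling. On LFD all 5 members of the miR-148 and miR-152 family were higher in BAT-Exos as deposited, with median-of-ratios factors and with totals without miR-378a-3p. After scaling to the library totals 4 of 5 were lower, so the contrast in direction on LFD depends on the scaling. On HFD the members did not share a direction as deposited, with 3 higher and 2 lower. The most abundant member of the miR-130 and miR-301 family, miR-130a-3p, had norm values of 4561, 8102, 847 and 1040. As deposited, of its members that reached 100, 2 of 2 on LFD and 3 of 3 on HFD were at least 2-fold lower in BAT-Exos. Of all mouse miRNAs, 71 of 303 on LFD and 94 of 307 on HFD were. Besides miR-130a-3p, these members reached 100 in vWAT-Exos alone, so the minimum favoured a lower value in BAT-Exos for them. For diet in vWAT-Exos 3 of its 3 members that reached 100 were above 0 in log2 ratio, as were 154 of 283 mouse miRNAs. None of the 3 was apart by 2-fold, and their median was 0.64.

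The miR-29 family, which represses the DNA methyltransferases DNMT3A and DNMT3B, was led by miR-29a-3p, at 253191, 216172, 282796 and 364404. As deposited none of its 3 members was at least 2-fold apart in any comparison except miR-29b-3p, at 975 and 2555 in BAT-Exos on LFD and HFD. Of 12 miRNAs known from adipocyte differentiation 10 reached 100, and 0 of these were at least 2-fold apart by diet in either depot. As deposited, 5 were at least 2-fold higher in BAT-Exos on LFD and none lower, and 5 were higher and 2 lower on HFD. Of all mouse miRNAs 89 were higher and 71 lower of 303 on LFD, and 99 and 94 of 307 on HFD. The 5 were miR-378a-3p, itself a brown fat marker, miR-30a-5p, miR-30c-5p, miR-30d-5p and miR-30e-5p. By the library totals 3 were higher and 2 lower on LFD, and 5 higher and 4 lower on HFD. Of all mouse miRNAs 38 were then higher and 168 lower of 318 on LFD, and 60 and 148 of 306 on HFD. Of the 10, miR-30a-5p was at 22845, 25518, 92978 and 110590, and miR-143-3p at 51574, 69824, 64880 and 62409, which is the order of size of miR-148a-3p.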

How the data were processed

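Small RNA libraries of AT-Exos (single-end reads of 50 bases, Illumina HiSeq) were processed by the authors with ACGT101-miR. The deposited values are a normalized signal per miRNA, with the method of normalization not given in the sources used here, and the genome build named in the submitters' processing notes is the human GRCh38. Members and lists were chosen with earlier results of these data known.

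Each sequence was counted once. In the library order of the text, the norm value of 1 read was 1.36, 2.37, 0.825 and 0.706, taken as the commonest ratio of norm value to the number in the names of predicted entries (2 of 5, 3 of 3, 127 of 146 and 100 of 112 entries). Within 0.01 of a read, 83.7% to 88.2% of values were whole reads, so no count test was used. A depth of 100 in norm value was 42.2 to 142 reads. Intervals are exact binomial (Clopper-Pearson) for ratios within a pair of libraries and approximate on the log scale for ratios of ratios. limma 3.58.1 (R 4.3.3) used an additive model with a pseudocount of 1. Named were the members, the 3 nearest profiles of each 3p strand and up to 4 leading miRNAs of a list. Calls were also run on simulated data, which held counting noise or an even noise over all sequences and no measured spread between mice or preparations. They therefore do not show how reliable calls from 1 library per condition are. Alternatives changed the scaling, the minimum of 100, the fold of 2 and the pseudocount. Totals without miR-378a-3p were added after seeing the data. Other steps used scipy 1.17.1, pandas 2.3.3 and numpy 2.4.6 under Python 3.11.15.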

Additional observations from a re-analysis of the deposited data

Results flagged for a closer look

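For 5 results the values moved in opposite directions in the groups compared. How many of all mouse miRNAs did so was not counted, so such a pattern is not shown to be particular to the members. The differences were not tested, since each group is 1 library. From the log2 diet ratio (HFD to LFD) of vWAT-Exos, that of BAT-Exos was subtracted, which gave 0.87 for miR-148a-3p, 0.86 for miR-148a-5p and 0.74 for miR-152-3p, each higher on HFD in vWAT-Exos and lower in BAT-Exos. The log2 ratio of BAT-Exos to vWAT-Exos on LFD minus that on HFD was 0.86 for miR-148a-5p and 1.21 for miR-152-5p, both higher in BAT-Exos on LFD and lower on HFD as deposited, whereas both were lower in BAT-Exos on either diet after scaling to the library totals. Each difference of the kind uses all 4 libraries, so that of miR-148a-5p is 1 value seen from both sides. The counting interval of the miR-148a-5p ratio included 1 for diet in vWAT-Exos (0.890 to 1.70) and for depot on HFD (0.60 to 1.07).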

How the results depend on the processing

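No paired analysis was possible because each condition has 1 library. All 5 members stayed higher on HFD in vWAT-Exos under the 4 scalings. The count of members at least 2-fold apart there, 1, became 0 with 100 required in both libraries, 3 at 1.5-fold and 0 at 3-fold. The depot count on LFD, 2, became 0 after scaling to library totals, 1 with totals without miR-378a-3p, 4 at 1.5-fold and 0 at 3-fold. The depot count on HFD, 0, became 2 after scaling to library totals, both 5p strands and lower in BAT-Exos, as were 148 of all 306 miRNAs under that scaling, and 2 at 1.5-fold, both higher. How many of all mouse miRNAs were apart at 1.5-fold, at 3-fold or with 100 in both libraries was not counted. Counts of members at these settings are thus not shown to be particular to the members. The members called by limma for depot, 2, became 1 with a pseudocount of 10, 0 with no minimum norm value, 0 after scaling to library totals, 1 with median-of-ratios scaling and 0 with totals without miR-378a-3p. Over all sequences limma called 228 for depot, 132 of them higher in BAT-Exos. With a pseudocount of 10 it called 204 (116 higher) and with median-of-ratios scaling 196 (114 higher). It called 0 with no minimum, 222 (56 higher) with library totals and 178 (77 higher) without miR-378a-3p. Scaled to library totals, the ratio of miR-152-3p on LFD turned to 0.946 and the limma effect of miR-148b-3p to -0.21. The causes were not tested. No listed sequence differed from a member in its 3′ length alone, so the 3p to 5p ratios had no alternative value. Depth limits the 5p strands, which rest on 49 to 230 reads, and the unknown assignment of reads among the 3p strands limits the ratios between them.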
